A study of Mus musculus with 8 samples.

Results

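The tibialis anterior of 24-month-old wild-type mice is described here by the abundance of its transcripts. The members are the protein-coding genes with at least 1 FPKM (fragments scaled to the length of the transcript and to all mapped fragments of the library) in each of the 4 wild-type libraries. They number 8860 of the 21608 protein-coding genes in the table, which holds 48328 genes of all types. The same values chose the members and give their levels, so abundance is given as a description with no test.

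The tibialis anterior is the muscle at the front of the shin that lifts the foot, and in mice it consists almost wholly of fast fibres. Total RNA was taken from the lower part of the muscle, 20 to 30 mg of frozen tissue, of 4 C57BL/6J mice aged 24 months with the wild-type genotype and no treatment named in the labels. Wild-type 1 and 3 were labelled male, and wild-type 2 and 4 female. The study's 8 samples include 4 of the genotype K320E-skm, which were not used. Nothing in the labels says whether the wild-type mice were littermates of the others, so errors measure the spread between these 4 libraries. Unless another order is given, 4 values in a row belong to wild-type 1, 2, 3 and 4, and errors are SD over n = 4.

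A muscle fibre shortens when myosin heads of the thick filament pull on the actin of the thin filament, and the troponin and tropomyosin on the thin filament open it to myosin when calcium leaves the sarcoplasmic reticulum. Fast fibres build this apparatus from other gene copies than slow fibres, clear calcium with a fast pump and the buffer parvalbumin, and make ATP largely by glycolysis and from phosphocreatine. Mitochondria supply the rest through a respiratory chain whose subunits are encoded partly in mitochondrial DNA and mostly in the nucleus.

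The label of the tissue was checked against markers. All 10 skeletal fibre markers measured were members, among them the muscle creatine kinase Ckm, the fast troponins Tnnt3, Tnni2 and Tnnc2, and the intermediate filament gene Des. Acta1, the skeletal alpha-actin gene, was not analysed here, so every share, sum and rank below leaves it out. Of 5 heart markers only Tnnt2 reached 1 FPKM in every library, at 1.68, 2.55, 1.89 and 1.27, and the atrial genes Myl7 and Nppa stayed at or below 0.0508 FPKM. The skin keratins Krt5 and Krt14 were listed at 0 in all 4 libraries.

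The files give no counts, so the depth of the libraries is unknown. The summed FPKM of all genes ranged from 748199 to 858029 per library, and protein-coding genes held 37.1% ± 2.80 of it. The 2 ribosomal RNAs of the mitochondrial genome held 35.4% ± 2.97. Between 9232 and 10388 protein-coding genes reached 1 FPKM in a library, the highest number in wild-type 1. Wild-type 1 also gave the highest of the 4 values for 69.9% of the members, and its scale factor by the median of ratios was 1.19 against 0.912 to 0.972 in the others. Sums of the lists that differ most are also given after division by these factors. Other orders between libraries are those of the deposited values, and where libraries differ by less than the factors do, the order can turn after division. Pearson's r of log2(FPKM + 1) between pairs of libraries, over the members, lay between 0.967 and 0.987, which describes genes and not replicates.

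A small number of genes held most of the signal. The 10 protein-coding genes with the highest mean FPKM held 28.2, 34.8, 34.4 and 34.7% of the protein-coding FPKM of the libraries. The 30 with the highest mean held 48.8% ± 3.73. It took 64 genes to reach 50% of the signal in wild-type 1, and 25, 30 and 29 genes in the others, so the first library was the flattest of the 4. By mean level, 26 members at 1000 FPKM or more held 46.9% ± 3.79 of the protein-coding FPKM, 276 members between 100 and 1000 FPKM held 22.0% ± 1.39, and 2372 members between 10 and 100 FPKM held 20.4% ± 1.54. The remaining 6186 members, below 10 FPKM, held 8.72% ± 0.981. Of the 30 most abundant genes of each library, 26 were shared by all 4, out of 35 in any. All members together held 98.0% ± 0.785.

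**Figure D1:**
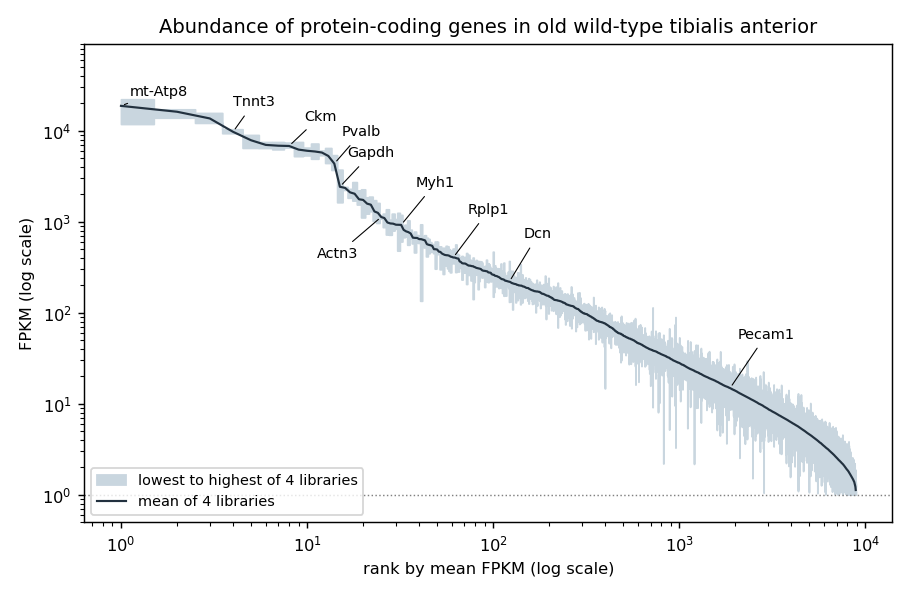
Mean FPKM of the 8860 members in the 4 wild-type libraries (line) against their rank by that mean, with both axes on log scales; the band runs from the lowest to the highest library and the dotted line marks 1 FPKM. Levels fall from 18795 FPKM for mt-Atp8 to just above 1 FPKM, and the first 26 genes lie at 1000 FPKM or more.

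At the lower edge, the members just inside the threshold were Agmo, Tcaf1 and Pomt2, whose lowest libraries stood at 1.00 FPKM after rounding. Snx7, Fam117b and Nckipsd missed it with lowest libraries that round to 0.999 FPKM. A gene high in 3 libraries could miss it too, as Myh4 did, described with the thick filament.

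Grouped by function, the 13 protein-coding genes of mitochondrial DNA held the largest mean share of the groups listed, 22.5% ± 3.62 of protein-coding FPKM. The contractile genes, without Acta1, followed with 18.5% ± 0.681 from 54 genes. In wild-type 1 this order was reversed, with 17.2% for mitochondrial DNA and 18.7% for the contractile genes. The nuclear-encoded subunits of the respiratory chain held 6.12% ± 0.830, glycolysis and glycogen metabolism 5.28% ± 0.474, and ribosomal proteins with translation factors 4.79% ± 0.604. Calcium handling held 2.88% ± 0.217 and phosphotransfer, that is creatine kinase and its relatives, 2.66% ± 0.108. Other mitochondrial metabolism held 1.76% ± 0.185, chaperones and redox enzymes 1.18% ± 0.0646, and the oxygen store myoglobin with carbonic anhydrase 3 1.16% ± 0.226. Markers of other cell types than the fibre summed to 0.422% ± 0.0972. The 21117 protein-coding genes in none of these groups, 8425 of them members, held 32.7% ± 2.82.

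The ranges of nuclear respiratory subunits, glycolysis and translation over the 4 libraries overlapped. Within a library the nuclear respiratory subunits lay above translation in all 4, with 6.31, 4.91, 6.79 and 6.47% against 5.64, 4.41, 4.79 and 4.32%. The place of glycolysis between them changed, at 4.89, 5.08, 5.18 and 5.97%, being the highest of the 3 in wild-type 2 and the lowest in wild-type 1. Wild-type 1 stood apart in the group with the largest mean share: mitochondrial DNA-encoded genes held 17.2, 25.4, 23.3 and 24.0% in the 4 libraries. The contractile share varied little, at 18.7, 18.9, 19.0 and 17.5%. The lowest, that of wild-type 4, includes Myh4 as listed at 0 there, which is described with the thick filament.

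**Figure D2:**
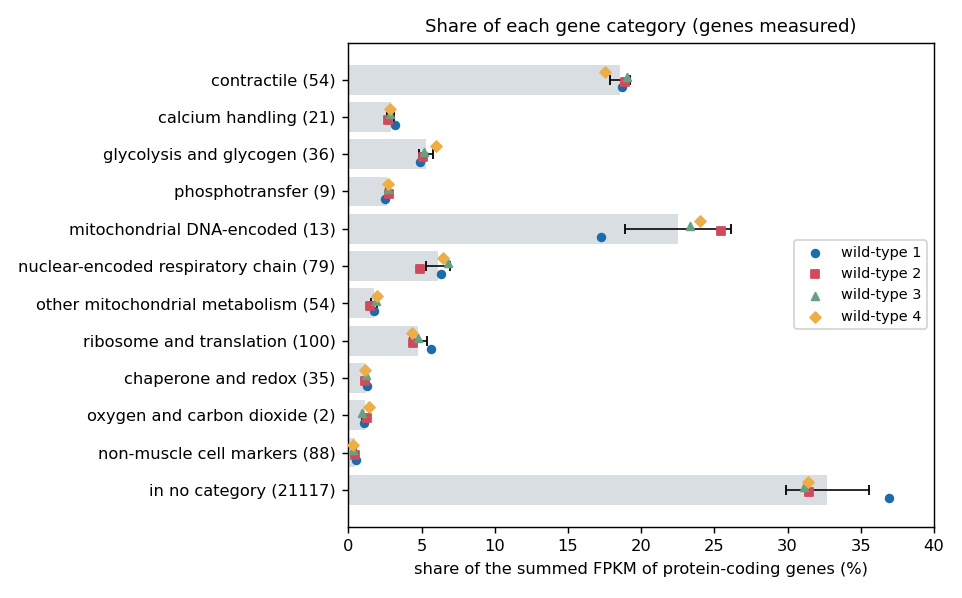
Share of the summed protein-coding FPKM held by each group of genes in each wild-type library, with the number of genes measured in brackets; bars show the mean, error bars the SD of 4 libraries and symbols the libraries. Mitochondrial DNA-encoded genes (22.5%) and contractile genes (18.5%) hold the largest shares among the groups listed, and wild-type 1 is low in the former and high among genes in no group.

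The promoters of leading contractile genes and of creatine kinase, Ckm, show what sequence precedes these transcripts. RefSeq promoter sequences of the build GRCm38.p6 were matched by symbol to 7082 of the 8849 nuclear members. Tnnt3 and Tnni2 were not matched. For 5 of the genes described below, the 100 bases just before the annotated start follow, 5′ to 3′ on the gene's strand, with capitals marking TATA in the window given below or the E-boxes CAGCTG and CACCTG where one was found.

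Tpm1 (chr9:67049214-67049313, minus strand): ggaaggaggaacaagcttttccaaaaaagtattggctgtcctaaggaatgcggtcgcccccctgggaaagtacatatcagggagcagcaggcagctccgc
Ckm (chr7:19410994-19411093, plus strand): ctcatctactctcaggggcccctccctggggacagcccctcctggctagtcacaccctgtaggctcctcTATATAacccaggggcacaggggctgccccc
Mylpf (chr7:127211508-127211607, plus strand): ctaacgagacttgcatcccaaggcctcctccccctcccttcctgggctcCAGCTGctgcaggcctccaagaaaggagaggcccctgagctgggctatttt
Tnnc2 (chr2:164779735-164779834, minus strand): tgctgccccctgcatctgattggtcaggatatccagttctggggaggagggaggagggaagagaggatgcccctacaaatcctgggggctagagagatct
Myl1 (chr1:66945057-66945156, minus strand): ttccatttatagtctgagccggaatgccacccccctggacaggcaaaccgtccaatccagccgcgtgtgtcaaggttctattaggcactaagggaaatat

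TATA on the gene's strand, with its first base 35 to 25 bases before the start, was present in 7.77% of 103 promoters of the 100 most abundant nuclear members, of which 76 were matched. It was present in 2.41% of 9159 promoters of all nuclear members and in 4.49% of all 32851 promoters of the table. In the 5 promoters shown, only that of Ckm held it, in a pair of overlapping copies the first of which begins 31 bases before the start. The other motifs were searched in the 250 bases before the start. CAGCTG, a form of the E-box that myogenic factors such as MyoD bind, was present in 18.4, 11.8 and 13% of the same 3 sets. The E-box CACCTG, searched on both strands, was present in 21.4, 14.7 and 17.2%. The MEF2-type motif, CTA and TAG with any 4 bases between them, was present in 3.88, 2.84 and 3.20%. CAGCTG and the MEF2-type motif read the same on both strands. None of the 4 motifs contains another in its fixed bases, but a match of the MEF2-type motif can hold TATA through its free bases. These shares describe letters in a window and were not tested.

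Among the thin filament genes analysed, which leave out Acta1, the fast troponins and tropomyosin led. Tnnt3, fast troponin T, which anchors the troponin complex to tropomyosin, was the most abundant nuclear member analysed, at 9456, 10397, 9725 and 9410.2 FPKM (chromosome 7, 142498836 to 142516009). Tpm1, alpha-tropomyosin, which covers the myosin-binding sites of actin, stood at 7522, 6648, 6470.4 and 7350.3 FPKM. Tnni2, the inhibitory fast troponin I, measured 7208, 6445, 7522 and 6256 FPKM (chromosome 7, 142441808 to 142444410). Tnnc2, the calcium sensor of fast troponin, had 6062, 5396, 6055 and 5574 FPKM. Tnnt3 lay above the others in every library, whereas Tpm1, Tnni2 and Ckm, with means of 6998, 6858 and 6809.6 FPKM, overlapped and their order is within the spread. Beta-tropomyosin Tpm2 stood at 1786, 2727, 1711 and 1909.8 FPKM and nebulin, Neb, the ruler of thin filament length, at 1027, 1725, 1092 and 1353 FPKM, both highest in wild-type 2. Of the 15 thin filament genes measured 14 were members, and their sum was 33406, 33653, 32854 and 32127 FPKM, a CV of 2.05%. After division by the scale factors it was 27996, 34626, 36007 and 33956 FPKM, lowest in wild-type 1, and the highest library was 1.29 times the lowest, against 1.05 times before.

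Thick filament genes were led by light chains. Mylpf, the fast regulatory light chain, measured 6525, 5367, 6289 and 5946 FPKM (chromosome 7, 127208890 to 127214298). Myl1, the fast essential light chain, had 6465, 4861, 4428 and 5409 FPKM. The ranges of these 2 genes, on different chromosomes, overlapped. Myosin heavy chains are the motors themselves, and each fibre type has its own. Myh4, the heavy chain of the fastest fibres (type 2B), stood at 3537, 4357, 3567 and 0 FPKM. It was listed at 0 in wild-type 4, which removed it from the members, and an exact 0 in such a table can be a failed estimate. Myh1 (type 2X) stood at 607, 1189, 779 and 1123 FPKM, Myh2 (type 2A) at 109.7, 89.3, 83.6 and 194 FPKM and the slow Myh7 at 2.00, 4.11, 0.153 and 1.59 FPKM.

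In wild-type 1, 2 and 3 Myh4 made up 83.1, 77.3 and 80.5% of the FPKM of these 4 heavy chains, and Myh1 14.3, 21.1 and 17.6%. Myh2 made up 2.58, 1.58 and 1.89% there, and Myh7 less than 0.08%. In wild-type 4, where Myh4 was listed at 0, Myh1 made up 85.1% and Myh2 14.7%, although Myh1 itself was no higher there than in wild-type 2. Mylpf and Myl1 of that library lay within the range of the other 3, and Myh2 was highest there. Myh13, the heavy chain of extraocular muscle, had 0.381, 0.511, 14.3 and 24.2 FPKM, high in wild-type 3 and 4 only, and so also missed the threshold. Titin, Ttn, the elastic giant that spans from Z-disc to M-line, stood at 559, 1036, 702 and 780.0 FPKM. The fast myosin-binding protein C, Mybpc2, measured 712, 589.6, 642 and 714 FPKM.

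Z-disc genes, which tie thin filaments of neighbouring sarcomeres together, were all members (20 of 20). Actn3, the alpha-actinin of fast fibres, stood at 1179, 1123, 1083 and 1128 FPKM. Tcap, which caps titin at the Z-disc, stood at 1228, 874, 1139.8 and 1154 FPKM, and Myoz1, which binds calcineurin there, at 654, 417, 667 and 532 FPKM. Desmin, Des, stood at 555, 539, 453 and 452 FPKM. In Tcap and Myoz1 wild-type 2 was the lowest library.

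The preponderance of fast copies was measured within each library as the log2 ratio of the fast gene to its slow or general relative, which is free of a scale factor common to a library. For troponin I (Tnni2 over Tnni1) it was 11.32, 10.10, 12.91 and 11.27, with a mean of 11.40 ± 1.15. Troponin T (Tnnt3 over Tnnt1) gave 10.64 ± 0.79 and troponin C (Tnnc2 over Tnnc1) 10.24 ± 1.05. The means correspond to ratios of 2701, 1599 and 1211. The regulatory light chains (Mylpf over Myl2) gave 7.42, 7.30, 11.49 and 8.34, and the essential light chains (Myl1 over Myl3) 7.58 ± 0.63. Tropomyosin (Tpm1 over Tpm3) gave 9.0 ± 0.39. The 23 ratios were positive in all libraries with a value, apart from Eef1a2 over Eef1a1 in wild-type 2.

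Not every pair was so unequal. Myosin-binding protein C (Mybpc2 over Mybpc1) gave 0.69, 0.14, 1.06 and 0.74, so the slow-type Mybpc1 at 441, 537, 308 and 427 FPKM was of the same order as the fast copy. Alpha-actinin (Actn3 over Actn2) gave 4.21 ± 0.35, calsequestrin (Casq1 over Casq2) 4.96 ± 0.24 and myozenin (Myoz1 over Myoz2) 4.72 ± 0.57. Myh1 over Myh2 gave 2.99 ± 0.60. For Myh4 over Myh7 only 3 libraries gave a ratio, 10.79, 10.05 and 14.51 in wild-type 1, 2 and 3.

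Several slow genes were lowest in wild-type 3, where the ratios of the 3 troponins and of the regulatory light chain were highest. Myl2, the slow regulatory light chain, stood at 38.2, 34.0, 2.18 and 18.3 FPKM and Tnnc1, slow troponin C, at 6.69, 8.36, 1.77 and 5.19 FPKM. Tnni1 stood at 2.83, 5.88, 0.978 and 2.53 FPKM and Tnnt1 at 7.08, 11.1, 2.84 and 6.18 FPKM. Myl3 did not follow, at 24.8, 17.1, 27.0 and 48.5 FPKM.

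**Figure D3:**
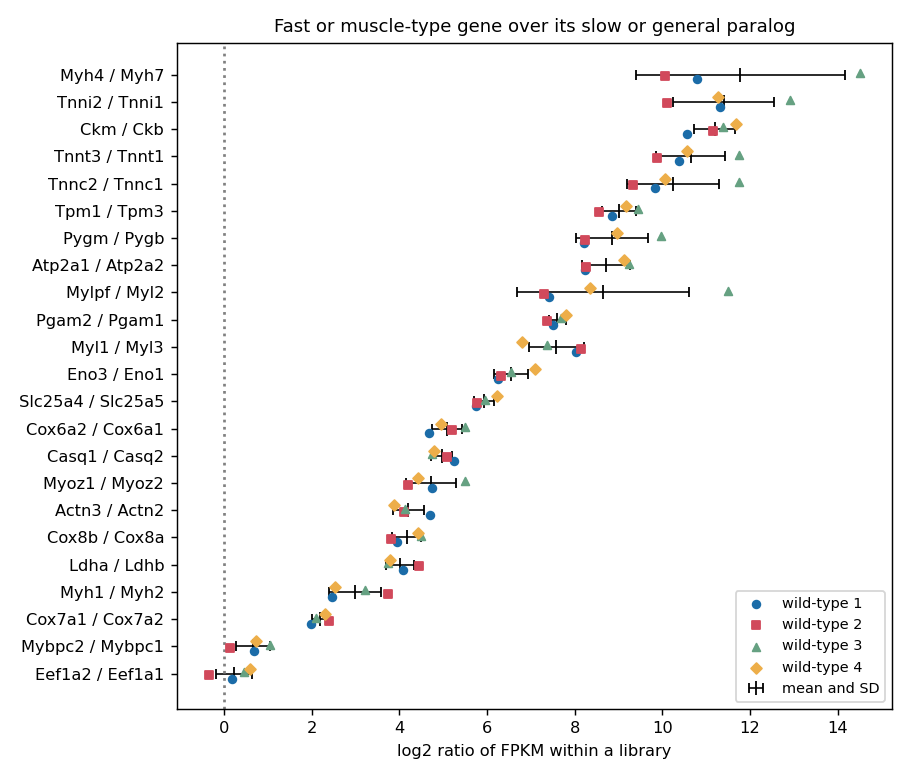
Log2 ratio of FPKM of a fast or muscle-type gene to its slow or general relative within each wild-type library (symbols), with the mean and SD over the libraries that gave a ratio; Myh4 over Myh7 has 3. The ratios run from a mean of 0.22 for Eef1a2 over Eef1a1 to 11.78 for Myh4 over Myh7, and wild-type 3 gives the highest value for the troponin, regulatory light chain and slow myosin pairs.

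Calcium handling was dominated by a buffer and a pump. Pvalb, parvalbumin, the soluble calcium buffer of fast fibres, stood at 5395, 3715, 4181 and 4134 FPKM. Atp2a1, the fast calcium pump SERCA1 that returns calcium to the sarcoplasmic reticulum, measured 2382, 2394, 2243 and 2414 FPKM (chromosome 7, 126445858 to 126463108). Before the scale factors its CV of 3.31% was among the 10 lowest of the 2674 members with a mean of 10 FPKM or more. Casq1, which stores calcium in the reticulum, stood at 679.9, 684, 528 and 642 FPKM, and triadin, Trdn, which links it to the release channel, at 188, 235, 173 and 199 FPKM. The channel Ryr1 stood at 119.7, 79.1, 109 and 99.8 FPKM. All 21 genes of the list were members. Atp2a1 exceeded the slow pump Atp2a2 by 8.71 ± 0.55 on the log2 scale.

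An inhibitor of the pump behaved differently. Sarcolipin, Sln, a small peptide that binds SERCA and uncouples it, measured 3.66, 89.6, 20.6 and 3.29 FPKM. It was high in wild-type 2, intermediate in wild-type 3 and low in the other 2, and its CV of 140.1% was the highest of the 2674 members. Wild-type 2 and 3 carry different sex labels.

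Glycolytic enzymes were led by Aldoa, aldolase A, at 5954, 5268, 6105 and 7525 FPKM (chromosome 7, 126795234 to 126800751). Gapdh had 1639, 3736, 1949.7 and 2375 FPKM, highest in wild-type 2, and with a CV of 38.1% it varied more than the other glycolytic genes named. Eno3, the muscle enolase, stood at 1478, 1305, 1490.3 and 1888 FPKM. Pgam2, the muscle phosphoglycerate mutase, stood at 926, 715, 691 and 808 FPKM, Tpi1 at 693, 579, 667 and 737 FPKM and Pkm at 675, 623, 586 and 697 FPKM. Aldoa, Eno3, Tpi1, Pkm and Ldha were each highest in wild-type 4, and the summed list was 13118, 13686, 13174 and 15927 FPKM. Of the 21 glycolytic genes measured 19 were members, and the 4 in the lead made up most of the sum.

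Muscle forms prevailed here too. Eno3 over Eno1 gave a log2 ratio of 6.55 ± 0.38, Pgam2 over Pgam1 7.60 ± 0.19 and Ldha over Ldhb 4.02 ± 0.33. Ldha, the lactate dehydrogenase subunit that favours lactate formation, stood at 630.3, 523, 634 and 711 FPKM and Ldhb at 37.4, 23.9, 47.2 and 51.6 FPKM. Pygm, the muscle phosphorylase that frees glucose 1-phosphate from glycogen, stood at 1070.3, 838, 888 and 917 FPKM, and its ratio to the brain form Pygb was 8.85 ± 0.82. Phkg1, a subunit of the kinase that activates it, measured 128, 118, 90.6 and 95.9 FPKM. The insulin-dependent glucose transporter Slc2a4 (GLUT4) had 113, 91.2, 99.6 and 109 FPKM.

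Of the phosphotransfer enzymes, Ckm, which rebuilds ATP from phosphocreatine, made up most of the sum at 6560.1, 7408, 6590.4 and 6680.1 FPKM (chromosome 7, 19404776 to 19422841). In the deposited values of Ckm, wild-type 2 lay above a narrow group of the other 3. After division by the scale factors the sum of the list was 6526, 8598, 8524 and 8462 FPKM, with wild-type 1 below the other 3. The mitochondrial creatine kinase Ckmt2 stood at 385, 329, 459 and 544 FPKM. Adenylate kinase Ak1 stood at 309, 258, 300.0 and 289 FPKM and AMP deaminase Ampd1, which opens the purine nucleotide cycle, at 308, 194, 223 and 270.3 FPKM. The brain-type kinase Ckb was below Ckm by 11.19 ± 0.47 on the log2 scale, and all 9 genes of the list were members.

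The protein-coding genes of mitochondrial DNA spanned more than 4 orders of magnitude. mt-Atp8, a short ATP synthase subunit gene, ranked first of all protein-coding genes at 11878, 22214, 19534 and 21556 FPKM (mitochondrial genome, 7766 to 7969). mt-Co1, the catalytic subunit of cytochrome c oxidase, stood at 13931, 17204, 16687 and 16977 FPKM and mt-Nd1, of complex I, at 12224, 15695, 12829.8 and 13939 FPKM. mt-Cytb, of complex III, stood at 6489, 8996, 7689 and 8299.6 FPKM and mt-Nd2 at 4931, 7234, 5622 and 5913 FPKM. In each of these 5 genes wild-type 1 was the lowest library and wild-type 2 the highest. The CV was 25.3% for mt-Atp8 and 9.43% for mt-Co1.

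Neighbours on the same circle were low. mt-Atp6, whose annotated span (7927 to 8607) overlaps that of mt-Atp8, measured 7.03, 7.75, 9.10 and 8.15 FPKM. mt-Co2 stood at 1.04, 0.291, 2.20 and 1.60 FPKM and mt-Co3 at 1.62, 0.454, 2.40 and 2.90 FPKM, and both missed the threshold through wild-type 2. mt-Nd3 stood at 91.8, 14.8, 105 and 93.7 FPKM and mt-Nd4l at 25.2, 18.6, 26.7 and 20.6 FPKM, against 1837, 2297, 2123 and 2172 FPKM for mt-Nd4. All of these genes but mt-Nd6 are transcribed from the same strand, as parts of long precursors. How the deposited values treat overlapping or short mitochondrial genes is not given in the sources used here, and its part in these levels was not tested. The genome's 11 members are reported as listed.

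The nuclear-encoded subunits of oxidative phosphorylation were nearly all members, 78 of 79. Complex I subunits were led by Ndufa4 at 573, 305, 606 and 513 FPKM and Ndufb9 at 443, 384, 362 and 392 FPKM; the former has since been assigned to cytochrome c oxidase. Complex IV was led by the muscle forms Cox6a2, at 733, 818, 769 and 655 FPKM, Cox8b, at 779, 461, 775 and 646 FPKM, and Cox7a1, at 549, 467, 597 and 596 FPKM. Cox4i1 was not analysed here. The ATP synthase list was led by its catalytic subunit Atp5b, at 794, 676, 876 and 917 FPKM. Slc25a4, the ADP/ATP carrier of muscle that exports ATP from mitochondria, measured 1015, 720.2, 1045 and 1055 FPKM.

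The muscle forms of cytochrome c oxidase exceeded the general forms by different amounts. Cox6a2 over Cox6a1 gave a log2 ratio of 5.09 ± 0.35, Cox8b over Cox8a 4.17 ± 0.34 and Cox7a1 over Cox7a2 2.20 ± 0.18. Slc25a4 over Slc25a5 gave 5.92 ± 0.23. The SDs of these 4 ratios, 0.18 to 0.35, were smaller than those of the 3 troponin pairs, 0.79 to 1.15.

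Wild-type 2 was the lowest library in the sums of these nuclear lists. Complex I summed to 6403, 4957, 6236 and 6221 FPKM, complex III to 2541, 1889, 2572 and 2495 FPKM, complex IV to 4720.1, 3834, 4709 and 4511 FPKM and ATP synthase to 5461, 3821, 5556 and 5580.3 FPKM. The same library gave the highest sum of mitochondrial DNA-encoded genes, 53618, 77148, 67390.3 and 71899.9 FPKM. After division by the scale factors complex I summed to 5366, 5100.2, 6835 and 6575 FPKM and ATP synthase to 4577, 3931, 6089 and 5898 FPKM, so wild-type 1 and 2 both lay below the other libraries.

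Transcript length moved with the library too. Against the mean of the other 3 libraries, and after the scale factors, the median log2 difference of wild-type 2 was -0.16 over the 499 nuclear members with a longest transcript under 1000 bases. It was 0.11 over the 528 members of 8000 bases or more, with -0.06, -0.01 and 0.04 in the classes between them. Wild-type 3 ran the other way among the shortest, at 0.12, and wild-type 1 stood at 0.03 among the shortest and -0.07 among the longest. Many respiratory subunits are short genes and titin and nebulin are long ones, and the part of length in the values of wild-type 2 was not tested. The list for pyruvate oxidation and the citric acid cycle stood at 1709, 1727, 1811 and 1961 FPKM, lowest in wild-type 1.

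Fatty acid genes were fewer among the abundant transcripts, although all 22 measured were members. Fabp3, the fatty acid carrier of the cytosol in muscle, stood at 258, 191, 173 and 233 FPKM, and Cd36, which takes fatty acids up, at 117, 102, 106 and 117 FPKM. Acadm, which opens the oxidation of medium chains, stood at 125, 149, 113 and 131 FPKM. Myoglobin, Mb, the oxygen store that gives oxidative fibres their colour, ranked 19th by mean at 1736, 1574, 1549 and 2211 FPKM. Car3, carbonic anhydrase 3, ranked 20th at 1506, 2271, 1117 and 2064 FPKM, with wild-type 2 and 4, the libraries labelled female, above wild-type 1 and 3. It was not among the genes past the threshold of the sex comparison given below.

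Ribosomal proteins were numerous and individually moderate. Of 90 genes measured 82 were members, led by Rplp1 at 506, 350.2, 393 and 370.3 FPKM and Rps27 at 563, 280.3, 422 and 334 FPKM, and many have processed copies in the genome among which reads can be divided. Their sum was 15678, 11820.0, 12426 and 11567 FPKM, highest in wild-type 1, as were 67 of the 82 members. After the scale factors the sum was 13139, 12162, 13618 and 12225 FPKM, highest in wild-type 3, and 18 of the 82 were highest in wild-type 1. Eef1a2, the elongation factor of mature muscle and nerve, stood at 282, 209, 198 and 197 FPKM, and Eef1a1, its general relative, at 249.9, 264, 143 and 129.9 FPKM. Their log2 ratio was 0.17, -0.34, 0.46 and 0.60, so neither copy prevailed beyond the spread. Tpt1, a translationally controlled protein bound to growth signalling, had 604, 449, 487 and 441 FPKM.

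Chaperones and redox enzymes included few abundant genes. Hspa8, the constitutive heat shock protein, stood at 276, 383, 222 and 261 FPKM, and the small heat shock proteins Cryab, which guards desmin, and Hspb6 at 221, 274, 187 and 307 FPKM and at 172, 355, 154 and 245 FPKM. Gpx4, a selenium enzyme that reduces lipid peroxides, measured 1127, 482, 1252 and 843 FPKM and ranged more than 2-fold, lowest in wild-type 2. Txnip, the thioredoxin inhibitor, had 288, 239.6, 109 and 209 FPKM.

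Of the 100 most abundant members 14 belonged to no group. Selenow, a small selenoprotein of muscle, stood at 785, 725, 1051 and 1371 FPKM, and Ankrd23, a titin-bound ankyrin repeat protein, at 911, 873, 801 and 1227 FPKM. Lars2, the mitochondrial leucyl-tRNA synthetase, measured 852, 936, 652 and 135 FPKM, lowest by far in wild-type 4. Fhl1, a LIM protein of growing muscle, ran the other way, at 184, 243, 150.2 and 468 FPKM. Among the rest were Ndrg2, Usmg5, Ybx3, Pde4dip, Tuba4a, Atp5mpl, Rtn2, Fxyd1 and Mdh1, with means between 275 and 411 FPKM. Usmg5 and Atp5mpl are small accessory subunits of ATP synthase that the lists leave out.

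The abundant nuclear members had short transcripts. The longest annotated transcript of the 100 most abundant nuclear members had a median of 1354.5 bases, against 1972 bases for the next 900 and 3107 bases for all 8844 nuclear members with a length. FPKM are already divided by length, and how the estimates treat short transcripts was not tested. By location, chromosome 7 carried 18 of the 100 most abundant members and 17.8% ± 0.585 of protein-coding FPKM, with 7.45% of the members. Tnnt3, Tnni2, Ckm, Aldoa, Mylpf and Atp2a1 all lie on it.

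Transcripts of other cells were far lower. In bulk muscle, fewer cells of a type and less RNA per cell cannot be told apart. The fibroblast list had the highest mean sum of these, at 616, 375, 223 and 253 FPKM, although the erythroid sum, given below, exceeded it in wild-type 3 and 4. All 10 of its genes were members and highest in wild-type 1, and 9 still were after the scale factors. Decorin, Dcn, a collagen-binding proteoglycan, made up most of it at 370.1, 235, 140.3 and 132 FPKM, followed by the collagen gene Col3a1 at 52.5, 27.3, 12.1 and 30.8 FPKM. The collagen genes Col1a1 and Col1a2 stood at 20.4, 7.89, 2.97 and 8.29 FPKM and at 44.3, 19.7, 9.05 and 15.6 FPKM, lowest in wild-type 3. After division by the scale factors the fibroblast sum was 516, 385, 244 and 267 FPKM, so wild-type 1 and 2 still lay above the others.

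Tenocyte genes varied widely. Their sum was 149.8, 139, 15.9 and 66.2 FPKM, and 126, 144, 17.5 and 70.0 FPKM after the scale factors. Fibromodulin, Fmod, a tendon proteoglycan, stood at 57.2, 53.9, 2.20 and 23.4 FPKM and Thbs4, a matrix protein of tendon and muscle, at 55.8, 52.4, 8.08 and 29.1 FPKM. Tenomodulin, Tnmd, the most specific of these, measured 12.3, 5.66, 0.454 and 2.52 FPKM. Wild-type 3 was lowest for each of these 3 genes. Scx, the transcription factor of tendon cells, ran the other way, at 3.84, 4.00, 4.44 and 4.26 FPKM, highest in wild-type 3. Of the 7 genes of the list Fmod, Thbs4 and Scx were members. The tissue taken was the lower part of the muscle, towards its tendon, and the labels do not say how much tendon each piece held. The part of tissue sampling in these values was not tested.

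Fat and immune markers were ordered in a like way. The adipocyte list summed to 206, 269, 105 and 141 FPKM, with Fabp4, shared with capillary endothelium, at 135, 151, 96.4 and 106 FPKM, complement factor D, Cfd, at 32.4, 67.4, 5.20 and 22.8 FPKM and adiponectin, Adipoq, at 19.0, 18.9, 1.52 and 4.57 FPKM. The macrophage list summed to 153, 115, 50.5 and 52.0 FPKM, with lysozyme Lyz2 at 51.4, 45.0, 22.2 and 20.7 FPKM and the complement gene C1qa at 22.9, 13.4, 5.28 and 5.65 FPKM. The 4 mast cell markers summed to 17.6, 19.6, 5.65 and 5.10 FPKM, with Mcpt4 at 8.73, 9.09, 2.33 and 2.33 FPKM. In these 3 lists wild-type 1 and 2 lay above wild-type 3 and 4, with and without the scale factors. No neutrophil, T cell or B cell marker was a member: their lists summed to 1.97, 1.09, 1.56 and 3.06, to 2.54, 0.460, 0.358 and 0.209 and to 14.1, 3.80, 1.72 and 0.766 FPKM. Jchain, the joining chain of secreted antibodies, made up most of the last, at 10.1, 3.25, 1.50 and 0.255 FPKM.

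Vessel, blood and nerve markers differed in their order. The 11 endothelial genes were all members and summed to 125, 80.6, 100.2 and 82.7 FPKM, with Egfl7 at 40.2, 21.4, 35.6 and 18.6 FPKM and Pecam1, the adhesion molecule CD31, at 15.2, 15.9, 13.7 and 14.5 FPKM. Mural and smooth muscle markers summed to 136, 138, 118 and 119 FPKM, led by the pericyte gene Rgs5 at 88.7, 61.9, 74.7 and 74.2 FPKM, and Acta2, smooth muscle actin, had 18.7, 37.5, 19.0 and 20.6 FPKM. The highest and lowest mural sums were within 1.25 times of each other after the scale factors. Erythroid genes summed to 235, 222, 370.1 and 273 FPKM, with all 5 members highest in wild-type 3. The beta-globin gene Hbb-bs stood at 133, 121, 212 and 152 FPKM, and the alpha-globin genes Hba-a1 and Hba-a2, near-identical copies whose reads may be divided arbitrarily, at 51.1, 52.2, 76.5 and 59.3 FPKM and at 29.4, 31.3, 49.7 and 37.3 FPKM. Schwann cell markers summed to 33.2, 28.3, 19.0 and 16.9 FPKM, led by Pmp22 at 15.6, 13.3, 7.05 and 7.81 FPKM.

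Satellite cells, the stem cells of muscle, left little signal. Pax7, which defines them, stood at 0.365, 0.0971, 0.141 and 0.197 FPKM and Myf5 at 0.495, 0.181, 0.343 and 0.198 FPKM, so neither was a member. Chodl, the only member of the list, stood at 3.68, 1.69, 1.41 and 2.01 FPKM and made up most of its sum of 4.63, 2.01, 1.95 and 2.45 FPKM. Cdh15 was not analysed here.

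**Figure D4:**
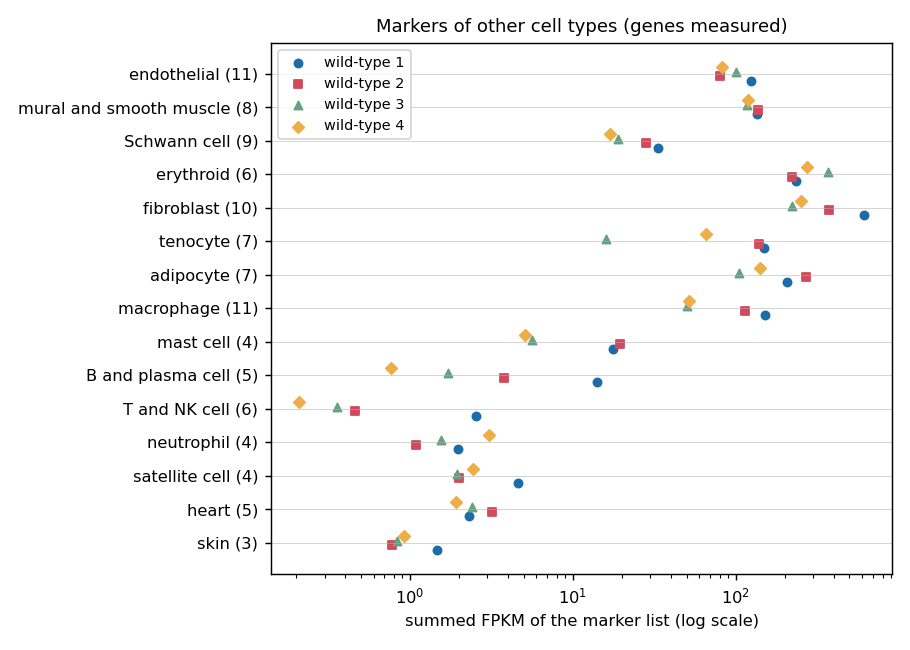
Summed FPKM of marker lists of other cell types, on a log scale, in each wild-type library, with the number of genes measured in brackets. Fibroblast, tenocyte, adipocyte, macrophage and mast cell sums are higher in wild-type 1 and 2 than in 3 and 4, erythroid sums are highest in wild-type 3, and endothelial and mural sums lie closer together.

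Genes of innervation and of muscle upkeep were mostly low. Of the 11 neuromuscular junction genes 8 were members, led by the acetylcholine receptor subunit Chrnb1 at 11.8, 17.3, 11.1 and 10.6 FPKM and its anchor Rapsn at 9.40, 6.07, 8.42 and 6.49 FPKM. Chrna1, the alpha subunit, which muscle raises when it loses its nerve, had 1.96, 10.2, 4.43 and 1.61 FPKM, highest in wild-type 2. The list for denervation and senescence summed to 62.3, 152, 61.7 and 55.3 FPKM, and 5 of its 11 genes were members. In wild-type 2 the stress-responsive titin partner Ankrd1 was high, at 16.0, 74.3, 9.57 and 18.1 FPKM, and so was the growth arrest gene Gadd45a, at 9.47, 25.7, 11.5 and 10.9 FPKM. The adhesion molecule Ncam1 stood at 5.99, 10.9, 2.98 and 0.883 FPKM and Cdkn1a, which halts the cell cycle, at 2.54, 7.51, 4.42 and 4.65 FPKM. Hdac4, a deacetylase that answers to loss of the nerve, did not share the pattern, at 23.9, 21.8, 27.2 and 16.0 FPKM.

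Regulators were led by Mef2c, a transcription factor of muscle genes, at 135, 193, 97.5 and 125 FPKM, with Myf6 (MRF4), the factor of mature fibres, at 51.6, 53.0, 40.1 and 34.4 FPKM. Myod1 stood at 9.41, 5.62, 8.14 and 5.48 FPKM and Myog, myogenin, at 1.63, 8.80, 7.10 and 4.37 FPKM, lowest in wild-type 1. The ubiquitin ligases of atrophy, Trim63 (MuRF1) and Fbxo32 (atrogin-1), stood at 67.3, 49.7, 59.2 and 56.1 FPKM and at 32.2, 24.7, 34.8 and 33.5 FPKM, and all 5 on that list were members. Mstn, myostatin, which restrains muscle growth, stood at 17.1, 10.1, 7.88 and 13.7 FPKM, and Sparc, a secreted matrix protein also made by fibroblasts, at 63.3, 40.1, 19.0 and 28.4 FPKM.

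The spread between libraries was moderate for most members. The median CV was 18.4% with quartiles of 13 and 25.5%, and 16.0% among the 2674 members with a mean of 10 FPKM or more. Without wild-type 1 the median CV over the members was 13.7%, and after the scale factors it was 14.1%. After the scale factors wild-type 1 was the highest library for 23.4% of the members and wild-type 2 for 31.6%. In the deposited values the lowest CVs among the 2674 were those of Hsd17b10, Klhl24, Clpb, Oxct1, Pdhx, Banf1, Arhgap5, Atp2a1, Fxr1 and Dnajb2. Genes this even before the scale factors are lowest in wild-type 1 after them, whose factor was 1.19 against 0.912 to 0.972. Hsd17b10, a mitochondrial dehydrogenase, stood at 24.4, 23.7, 23.7 and 23.5 FPKM and Oxct1, which lets muscle burn ketone bodies, at 76.2, 75.3, 72.1 and 74.1 FPKM.

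At the other end, Sln and Ankrd1 were joined by genes high in a single library and by genes that divided the libraries differently. Mss51, a mitochondrial protein of fast muscle, had 114, 9.18, 14.5 and 16.9 FPKM, high in wild-type 1 only. Mettl21c, a methyltransferase of muscle, stood at 37.6, 5.97, 13.2 and 9.99 FPKM, highest in the same library. Selenoi, which makes phosphatidylethanolamine, measured 6.02, 4.10, 29.8 and 7.38 FPKM, high in wild-type 3 only. Cfd, Adipoq and Fmod, given above, and the matrix gene Ogn, at 48.3, 27.0, 9.25 and 11.9 FPKM, were among the 10 highest as well (1 predicted gene without a name is left out), all lowest in wild-type 3. Adipoq and Fmod were high in both wild-type 1 and 2. Mybph, which is described next, completed them and was high in wild-type 2 and 4. Of genes just outside the members, Nnat, a proteolipid of nerve and fat, had 9.68, 22.8, 0.228 and 0.822 FPKM.

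**Figure D5:**
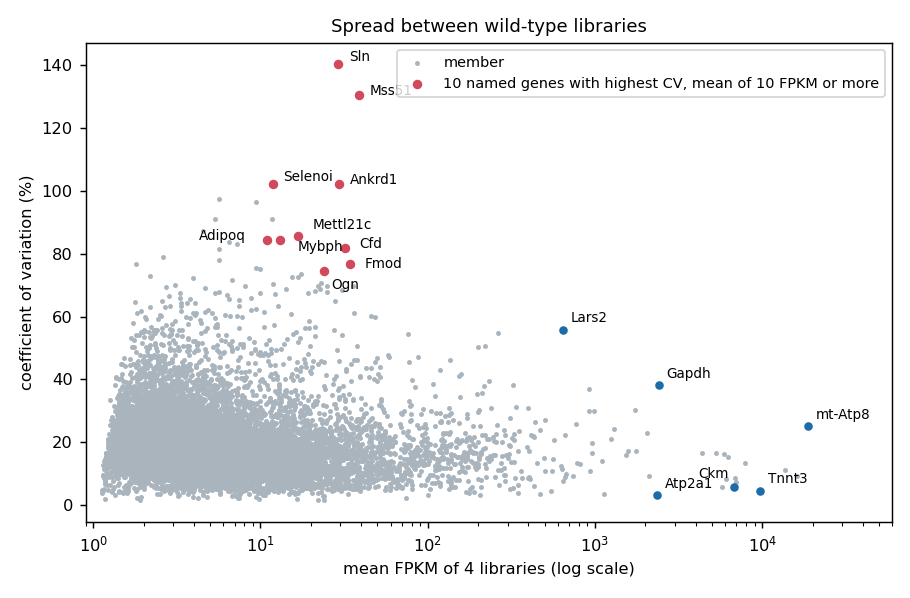
Coefficient of variation of the deposited FPKM, before the scale factors, over the 4 wild-type libraries against mean FPKM (log scale) of the 8860 members. The 10 named genes with the highest CV at a mean of 10 FPKM or more are in red, and 6 abundant genes are in blue. Sln stands highest at 140%, and the abundant Atp2a1, Ckm and Tnnt3 lie below 6%, whereas Gapdh and Lars2 vary more.

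Sex was the only labelled difference among these 4 libraries and was not used to choose the members. Male minus female was tested with limma on log2(FPKM + 1), over 11001 genes of all types with 1 FPKM or more in at least 2 libraries, and with 2 libraries a sex. At a Benjamini-Hochberg adjusted p under 0.05, 30 genes (0.273%) were higher in the male libraries and 8 (0.0727%) lower. Unadjusted p was under 0.05 for 377 genes, and 5% of the genes tested would be 550. The Y-linked Ddx3y, an RNA helicase, stood at 21.6, 0.0152, 16.1 and 0.0167 FPKM (limma adjusted p = 9.14e-06), and the Y-linked translation factor gene Eif2s3y at 16.4, 0.102, 18.8 and 0.185 FPKM. Xist, which silences an X chromosome in females, measured 0.0138, 15.0, 0.0226 and 8.82 FPKM, so these genes matched the labelled sex in every library. Of the calls, 9 of the 30 and 4 of the 8 were listed at 0 in both libraries of one sex, such as the small nucleolar RNA Snord100 at 651, 0, 511 and 0 FPKM.

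Among the 8860 members 3 were higher (0.0339%) and 1 lower (0.0113%), smaller shares than the background above. The rule brings this about in part, since genes under 1 FPKM in one sex, such as Ddx3y and Eif2s3y, cannot be members. Mgst1, a glutathione transferase of membranes, had 53.4, 13.3, 44.3 and 12.4 FPKM, a log2 difference of 1.84 (SE 0.26, limma adjusted p = 0.0084). Amd1, which feeds polyamine synthesis, stood at 53.8, 10.3, 60.7 and 19.1 FPKM (1.95, SE 0.31, limma adjusted p = 0.0181). Tmem37, a calcium channel subunit, measured 17.9, 3.64, 20.3 and 6.84 FPKM (1.74, SE 0.30, limma adjusted p = 0.0342). Mybph, myosin-binding protein H, a relative of Mybpc2, had 4.81, 20.4, 2.54 and 24.6 FPKM and was lower in the males by 2.37 on the log2 scale (SE 0.30, limma adjusted p = 0.00332). The groups of 2 did not overlap in any of these 4 genes. The test chose the genes for their difference between the groups, so this adds no support. After the scale factors the limma adjusted p was 0.0483 for Mybph, 0.0553 for Mgst1, 0.745 for Amd1 and 0.806 for Tmem37. With each library left out in turn, the log2 difference lay between -2.72 and -2.01 for Mybph and between 1.71 and 1.97 for Mgst1. It lay between 1.53 and 2.37 for Amd1 and between 1.36 and 2.12 for Tmem37. Such a fit leaves a lone library of one sex, which is assumed to vary like those of the other. It therefore cannot decide whether a call holds.

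Outside the members, the imprinted RNA H19 stood at 37.8, 254, 59.7 and 159 FPKM, lower in the male libraries (-2.05, SE 0.33, limma adjusted p = 0.0181, and 0.719 after the scale factors). These calls rest on 2 libraries a sex, and a fit with 1 of them left out keeps a lone library of that sex. The filter of 1 FPKM in at least 2 libraries then removes genes that reach it in that sex alone. The number of calls in such fits therefore cannot tell how far the calls depend on a library. With the scale factors, 12 genes were higher and 6 lower, so the excess of higher calls was smaller. The median log2 difference over all genes tested was 0.10, and wild-type 1, the library with the largest scale factor, was labelled male.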

How the data were processed

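For the 4 wild-type libraries, gene levels were taken as FPKM from the authors' deposited table, which lists 48328 Ensembl genes. The submitters' processing notes name CASAVA, TopHat2 2.0.10, Cufflinks 2.1.1 and the build mm10, and per the labels the kit was stranded. For the annotation release and the strand setting, nothing is given in the sources used here. FPKM are relative to all mapped fragments, so levels within a library depend on one another. Depth is unknown and no counting error can be given. An exact 0 can be a failed estimate.

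GENCODE M21 gave symbols, types and GRCm38 coordinates for 47864 IDs, and 464 had no match. No 2 libraries held identical values, and 0 columns were unmapped. Shares are of the summed protein-coding FPKM of a library, without Acta1, Cox4i1, Fbxo31 and Cdh15, which were not analysed here. Scale factors were medians of ratios over the members. Sex was tested with limma 3.58.1 (R 4.3.3) on log2(FPKM + 1) with a pseudocount of 1 and a variance trend, two-sided. On data simulated for this comparison, with 11001 genes, it recovered 39 of 100 changes of log2 size 1 and 95 of 100 of log2 size 2, with 18 false calls. The false calls were a larger part of all calls than the threshold of 0.05, and the simulation held no difference in scale between libraries. Members, gene lists and tests were chosen with earlier results of these data known. Genes were named by rule: the 30 most abundant, up to 4 per list, all ratio pairs, the 10 highest and 10 lowest CVs from a mean of 10 FPKM, genes at the threshold, and up to 10 sex calls a direction. Others named were chosen after their values were seen. Alternatives were other thresholds, denominators, scalings, pseudocounts, filters and leaving out each library. Python 3.11.15 and pandas 2.3.3 were used elsewhere.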

Additional observations from a re-analysis of the deposited data

Results flagged for a closer look

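In a group of 4 libraries a value was singled out where the gap between the highest or lowest library and its nearest neighbour was larger, as a part of the whole range, than Dixon's 95% critical value for 4 values. Chance alone marks about 1 in 20 groups. Of 302 values examined (gene levels, list sums and shares), 24 were marked, or 7.95%, among them 17 of 225 genes. The values are not independent, since list sums contain the genes.

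Wild-type 2 stood apart in 11 of them. Its sums were low for complex I (4957 FPKM), complex III (1889 FPKM), ATP synthase (3821 FPKM) and the mitochondrial carriers (1694 FPKM). So were the carrier genes Slc25a3 (126 FPKM) and Slc25a4 (720.2 FPKM). After the scale factors wild-type 1 and 2 both lay below the other libraries in these sums. They stood at 5366 and 5100 FPKM for complex I and 2129 and 1943 FPKM for complex III. For ATP synthase they stood at 4577 and 3931 FPKM and for the carriers at 1926 and 1743 FPKM. High in wild-type 2 were the sum for denervation and senescence (152 FPKM), Ankrd1 (74.3 FPKM), Gadd45a (25.7 FPKM), the smooth muscle actin Acta2 (37.5 FPKM) and Ckm (7408 FPKM). The phosphotransfer sum, most of it Ckm, was 6526, 8598, 8524 and 8462 FPKM after the scale factors, so wild-type 2 did not stand apart there.

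Wild-type 1 stood apart in 12. It was low for mt-Co1 (13931 FPKM) and high for the share of genes in no group (36.9%). It was high for the fibroblast gene Smoc2 (44.6 FPKM), the elongation factor Eef1a2 (282 FPKM), Mss51 (114 FPKM) and the ubiquitin ligase Fbxo30 (3.75 FPKM). The T and NK cell sum (2.54 FPKM) with Cd3d (0.421 FPKM), Cd3g (0.634 FPKM), Cd4 (0.471 FPKM) and Nkg7 (0.569 FPKM), and the B cell gene Cd79a (1.21 FPKM), were high in it too, all at levels near or below 1 FPKM per gene. These marks are on deposited values, and the scale factor of wild-type 1 was 1.19 against 0.912 to 0.972 in the others. Fbxo30, at 3.75, 3.30, 3.27 and 3.21 FPKM, differed by less than the factors do, so its order can turn after division. The T and NK cell sum was 2.13, 0.473, 0.392 and 0.221 FPKM after the scale factors, still highest in wild-type 1. Wild-type 3 stood apart in Selenoi alone (29.8 FPKM).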

How the results depend on the processing

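Of the values given as answers to a comparison, 58 of 95 under other settings stayed within 1 SD, or within 1.5 times for counts, and so did 151 of 160 with one library left out. A threshold of 5 FPKM left 3976 members. With mitochondrial DNA-encoded genes out of the denominator the shares were 23.9% (contractile), 3.72% (calcium), 6.83% (glycolysis and glycogen), 3.44% (phosphotransfer), 7.89% (nuclear respiratory chain), 2.27% (other mitochondrial), 6.16% (translation), 1.52% (chaperone and redox), 1.51% (oxygen and carbon dioxide) and 0.543% (non-muscle). Over genes of all types they were 6.87, 1.07, 1.96, 0.985, 2.25, 0.649, 1.77, 0.436, 0.435 and 0.158%, and 8.36% for mitochondrial DNA-encoded genes. The 10 most abundant genes then held 26.2% and 52.8%, and 50% was reached with means of 116 and 8.25 genes. Without Myh4 the contractile share was 17.8%. With 1 added to both levels, Pgam2 over Pgam1 was 7.28. The median CV was 14.1% after median-ratio rescaling and 13.7 to 19.6% with one library left out. Genes higher and lower in the male libraries numbered 2 and 1 with no filter, 14 and 4 with a filter of 5 FPKM, 86 and 15 with robust empirical Bayes, 12 with median-ratio rescaling and 9 with quantile normalization (higher), and 0 to 126 and 1 to 44 with one library left out. Fewer samples or other genes enter these fits, and the causes were otherwise not tested. Rescaled list sums were chosen after seeing the data. No paired analysis was possible because the male libraries are replicates 1 and 3 and the female libraries 2 and 4, so they share no number, and genotypes were not compared. The small number of libraries and the absence of counts limit every error given.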

Other observations

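Genes that do not code for protein held most of the summed FPKM and were outside the members. The mitochondrial ribosomal RNAs mt-Rnr2 and mt-Rnr1 stood at 195008, 205436, 238653 and 232954 FPKM and at 64819, 59199.9, 83337 and 73008 FPKM, both highest in wild-type 3. The nuclear RNA Rn7sk, which holds the elongation factor P-TEFb, stood at 43541, 33877, 27209.5 and 22066 FPKM, and Rny3, a Y RNA bound by the Ro protein, at 20325, 6171, 14823 and 11402 FPKM. Rpph1, the RNA of ribonuclease P, stood at 14280.0, 8665, 8466 and 7735 FPKM. The mitochondrial transfer RNA gene mt-Ts1 stood at 24818, 6092, 41081 and 33233 FPKM, lowest in wild-type 2. By type, small nucleolar RNAs held 8.10% ± 1.16 of all FPKM, mitochondrial transfer RNAs 7.24% ± 2.59 and long intergenic RNAs 0.647% ± 0.280. They entered no comparison other than that of the sexes.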
